A study of Mus musculus with 6 samples.

Results

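The genes described here encode secreted cytokines of T cells and ligands of the tumour necrosis factor (TNF) family, namely Ifng, Tnf, Lta, Ltb, Il2, Csf2, Il10, Tgfb1, Fasl and Tnfsf10. They were read through every probe set (a group of short probes for 1 transcript) that the annotation of the Mouse Genome 430 2.0 array assigns to exactly 1 of these symbols, which gave 14 of the 45037 probe sets other than controls and all 10 genes, of 18193 genes on the array. Il2 was also named on a probe set shared with Ntan1, which was left out by this rule. Transcripts were measured in P14 cytotoxic T cells, CD8 T cells of C57Bl/6 mice whose transgenic T cell receptor recognises the viral peptide gp33. Spleen cells were activated for 24 h with that peptide and then exposed to a retrovirus that encodes GFP fused to a phosphorylation-deficient mutant of the histone deacetylase HDAC7, and were sorted into 3 GFP positive samples, which carry the mutant, and 3 GFP negative samples, which serve as the control. Both groups thus share the receptor transgene, the peptide and the exposure to virus, and the controls are cells sorted without GFP after that exposure. No group with an empty vector was used here. The sources used here do not give the promoter that drives the construct, the age of the mice or the time of sorting. The labels call the samples biological replicas without saying whether they came from separate animals, so the p-values speak only for the spread between these samples, which may be technical.

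Cytokines are released after a T cell meets its antigen, and most of their genes are switched on by NFAT, AP-1 and NF-kB factors downstream of the receptor. Interferon gamma activates macrophages and antigen presentation, TNF and the lymphotoxins act on inflammation and lymphoid tissue, interleukin 2 and GM-CSF act as growth factors, and interleukin 10 and TGF-beta restrain immune responses. Fas ligand and TRAIL, the product of Tnfsf10, are TNF family members that kill target cells through death receptors. Class IIa deacetylases such as HDAC7 repress transcription in the nucleus, largely as partners of MEF2 factors, and are exported to the cytoplasm once phosphorylated.

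RefSeq promoters (assembly GRCm38.p6, 250 bases before to 50 bases after the start) were matched by symbol for 9 of the 10 genes, Ifng, Tnf, Lta, Ltb, Il2, Csf2, Tnfsf10, Fasl and Tgfb1. Those of Ifng, Tnfsf10 and Fasl are shown because their transcripts passed the test, the first pair upward and Fasl downward. The Ifng promoter lies at chr10:118440796-118441095 on the plus strand, that of Tnfsf10 at chr3:27316827-27317126 on the plus strand and that of Fasl at chr1:161788446-161788745 on the minus strand. Capitals mark each match to the NFAT core GGAAA on either strand.
Ifng promoter: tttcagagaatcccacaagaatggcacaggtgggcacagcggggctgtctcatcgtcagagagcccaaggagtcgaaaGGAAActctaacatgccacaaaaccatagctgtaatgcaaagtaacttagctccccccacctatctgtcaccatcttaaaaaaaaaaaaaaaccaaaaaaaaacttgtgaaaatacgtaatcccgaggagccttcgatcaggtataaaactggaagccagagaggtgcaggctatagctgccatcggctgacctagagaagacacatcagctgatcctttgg
Tnfsf10 promoter: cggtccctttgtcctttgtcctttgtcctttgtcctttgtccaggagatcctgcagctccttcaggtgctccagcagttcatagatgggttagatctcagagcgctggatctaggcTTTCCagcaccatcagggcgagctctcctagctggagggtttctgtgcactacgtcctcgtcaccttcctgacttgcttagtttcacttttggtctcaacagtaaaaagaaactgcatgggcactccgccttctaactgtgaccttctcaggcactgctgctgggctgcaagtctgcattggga
Fasl promoter: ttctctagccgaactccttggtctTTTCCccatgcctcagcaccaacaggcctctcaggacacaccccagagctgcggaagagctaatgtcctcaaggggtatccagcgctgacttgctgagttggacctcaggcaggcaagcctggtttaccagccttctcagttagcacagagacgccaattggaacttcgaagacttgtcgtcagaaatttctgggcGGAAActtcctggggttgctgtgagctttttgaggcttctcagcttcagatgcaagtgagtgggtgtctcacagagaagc

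The letters GGAAA were found at -172 to -168 in Ifng, and as their reverse complement at -134 to -130 in Tnfsf10, where the first transcribed base is 1. The Fasl promoter held a pair of matches, at -226 to -222 on the reverse strand and at -30 to -26 on the forward strand. Of the 9 promoters, 8 held GGAAA on either strand, and 61.3% of 32851 RefSeq promoters of the same length do. The AP-1 motif TGANTCA and the T-box motif GGTGTGA had no match in the 9 windows, and 7.81% and 3.98% of all promoters hold them. The NF-kB motif, searched as a fixed consensus pattern on both strands, matched in Ltb and Tgfb1 (8.46% of all promoters), and in Ltb this match overlaps the GGAAA at -87 to -83. Looser forms of the motif were not searched. The MEF2 motif, searched in the same way, matched in 0 of the 9 and in 3.19% of all promoters. These matches describe letters in a short window and not binding.

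All 8 cytotoxic T cell markers lay above the 40th percentile of the array, and they moved both ways between the groups: Cd3e, Cd3g, Cd8a and Cd8b1 rose, Gzmb and Cd2 fell by 1.00 and 1.03 (limma adjusted p = 4.49e-04 and 2.91e-04), and Cd3d and Thy1 did not pass. Cd8a averaged 10.24 ± 0.24 (log2 signal, SD, n = 3) in GFP positive and 8.996 ± 0.17 (n = 3) in GFP negative cells, Cd3g averaged 10.17 ± 0.11 and 9.50 ± 0.18, and Cd4 stood at 2.82 and 2.87. Hdac7 rose by 3.32 on the brighter of its 2 probe sets, at 8.15 ± 0.05 in GFP positive and 4.83 ± 0.03 in GFP negative cells, and fell by 0.55 on the other, at 6.19 ± 0.02 and 6.74 ± 0.08 (limma adjusted p = 2.6e-06 and 0.00255). The bacterial TrpnX controls averaged 0.60 to 0.72 per array. The median of all probe sets was 1.62 to 1.66 on the GFP positive and 1.69 to 1.72 on the GFP negative arrays. The 21 spike-in control probe sets split the other way, averaging 5.36 to 5.54 on the GFP positive and 5.28 to 5.30 on the GFP negative arrays. The cause of these splits was not tested. GFP positive 3 stood apart on the control probe sets, with a median deviation of 0.20 from their median over the arrays, against 0.05 to 0.10 on the other 5 arrays, of which GFP negative 1 was the highest. Of the calls over all probe sets, 59.3% were higher in GFP positive cells, against 71.5% after centring each array on its median and 35.2% after centring on the median of the brighter probe sets, a setting that moved the median change of all genes to -0.16, against -0.05 as deposited. Precision is limited by having 3 arrays per group.

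The comparison sets the transcripts of these ligands in cells that carry the HDAC7 mutant against those in cells sorted without GFP. Effects of the mutant, of GFP and of infection by the virus cannot be told apart in this design. Nor can prior differences between cells that the virus infected and cells that it did not. Ifng rose 3.16-fold and Tnfsf10 rose 1.57-fold in GFP positive cells, while Fasl was 2.71-fold lower and Il10 2.14-fold lower. Tnf, Lta, Ltb, Il2, Csf2 and Tgfb1 did not pass the threshold, with changes on the log2 scale from -0.43 for Lta to 0.36 for Tnf. Fewer cells that express a gene and less RNA per cell cannot be told apart in these samples.

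By gene, read on the brightest probe set, 2 of the 10 rose and 2 fell at a limma adjusted p under 0.05. Over all 18193 genes 25.4% passed in either direction, 15.4% upward and 10% downward. By probe set, 3 of 14 rose and 3 fell, where 18.6% of all probe sets passed, 11.0% upward and 7.56% downward. The groups did not overlap in 6 of the 10 genes, against 43.4% of all genes, and in 9 of the 14 probe sets, against 35.1% of all. Nothing is called particular to these ligands from such counts. Their median change was -0.09, against -0.05 over all genes. Of the 10 genes, 8 lay above 1.27, the 40th percentile of the probe sets' mean signals, and Il2 and Csf2 lay below it.

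**Figure D1:**
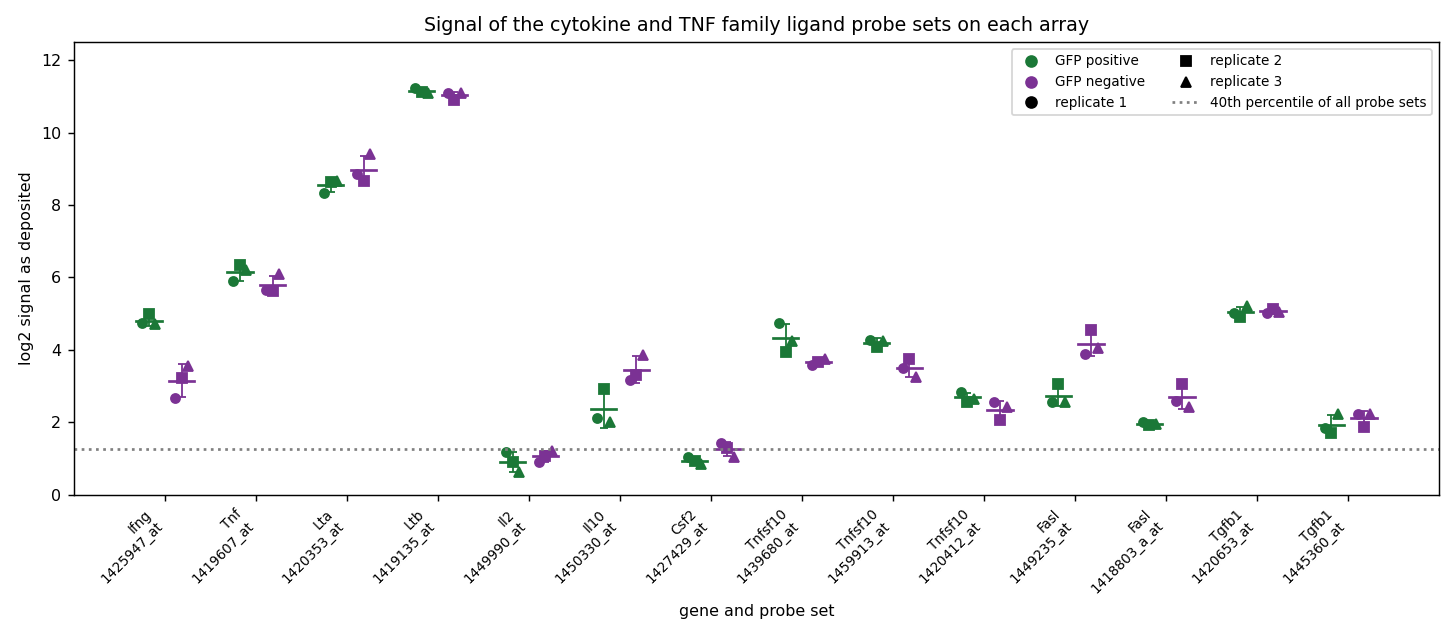
Log2 signal as deposited (vertical axis) of the 14 probe sets (horizontal axis) on each array. Points are samples with the symbol giving the replicate number, horizontal bars are group means, error bars are SD (n = 3), and the dotted line is the 40th percentile of all probe sets. The 3 GFP positive samples of Ifng lie between 4.70 and 4.99, above the GFP negative samples, and those of both Fasl probe sets lie below the GFP negative ones.

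Ifng encodes interferon gamma, the main cytokine that cytotoxic T cells send to macrophages and infected tissue. Its probe set read 4.74, 4.99 and 4.70 (log2) in GFP positive 1, 2 and 3, against 2.67, 3.23 and 3.56 in GFP negative 1, 2 and 3. All GFP positive samples lay above all GFP negative ones, and GFP negative cells had the wider spread (SD 0.16 and 0.45). The rise was 1.66 ± 0.21 (SE) on the log2 scale, with a 95% interval of 1.19 to 2.13 and a limma adjusted p of 0.00106. Within replicate numbers 1, 2 and 3 the rise was 2.07, 1.76 and 1.14. It passed under all 17 alternatives in which it was tested, with adjusted p from 6.61e-05 to 0.0185, and the rise was 0.55 once 32 was added in linear units.

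The receptor chain gene Ifngr1 averaged 8.29 in GFP positive and 8.35 in GFP negative cells, and Ifngr2 averaged 2.77 and 2.96, neither past the threshold. Among genes that interferon gamma induces, many of which type I interferons induce as well, 12 of 17 rose, 1 fell and 4 did not pass, with a median change of 0.59. Over all genes 15.4% rose and 10% fell, with a median change of -0.05. Of the 17, 16 lay above the 40th percentile, where 5557 of 13194 genes passed when only those were tested. These shares are the background for each list of genes below. The guanylate-binding protein genes Gbp3, Gbp2 and Gbp6, which act in defence inside the cell, rose by 1.08, 1.34 and 1.17, and Psmb9, a subunit gene of the immunoproteasome, rose by 0.59. Irf8, a transcription factor gene of myeloid and lymphoid cells, was the member that fell, by 1.25. Without GFP negative 1 and GFP positive 3 the counts were 3 and 1 of 17, and after centring on the brighter probe sets 9 and 3. With the replicate number as a block they were 11 and 2, since Igtp and B2m did not pass (limma adjusted p = 0.0576 and 0.0541) while Socs1 (0.44, adjusted p = 0.0163) and Ciita (-0.35, adjusted p = 0.0462) did.

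Tnf, Lta and Ltb, which neighbour each other in the mouse genome, encode TNF and the 2 lymphotoxin chains, and 0 of them passed by limma, whereas 1 of them, Lta, had an unadjusted p under 0.05. Tnf read 5.89, 6.34 and 6.21 in GFP positive 1, 2 and 3, against 5.66, 5.61 and 6.09 in GFP negative 1, 2 and 3. The groups overlapped, as GFP negative 3 lay above GFP positive 1, and the change was 0.36 with a 95% interval of -0.006 to 0.73 (limma adjusted p = 0.165). Lta read 8.34, 8.64 and 8.66 in GFP positive cells, against 8.87, 8.66 and 9.40 in GFP negative cells. GFP positive 3 lay barely above GFP negative 2, so these groups overlapped too, and the change was -0.43 with an interval of -0.85 to -0.005 (limma adjusted p = 0.154, unadjusted p = 0.0478). Ltb read 11.24, 11.14 and 11.11 in GFP positive cells, against 11.10, 10.91 and 11.09 in GFP negative cells. These did not overlap, but the change was 0.13, with an interval of -0.08 to 0.34 (limma adjusted p = 0.379). In 17 alternatives each of these 3 genes stayed on its side of the threshold, with adjusted p as low as 0.0542 for Lta.

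Of their receptors, Tnfrsf1a, which encodes TNF receptor 1 and signals inflammation and death, rose by 0.78, at 6.24 ± 0.08 in GFP positive and 5.46 ± 0.12 in GFP negative cells (limma adjusted p = 9.52e-04). Tnfrsf1b, for TNF receptor 2, had a change of 0.18, and Ltbr, the lymphotoxin beta receptor gene, stood at a low 1.78 and 2.15, and neither passed. Of 13 genes that TNF and NF-kB induce, 6 rose, 2 fell and 5 did not pass, with a median change of 0.35. Of all genes, 15.4% rose and 10% fell. Traf1, an adaptor of TNF receptors, rose by 1.60, Tnip1, which restrains NF-kB, by 1.05, the inhibitor of apoptosis gene Birc2 by 0.97 and the nuclear NF-kB partner gene Bcl3 by 0.82. The chemokine genes Ccl3 and Ccl4 fell by 1.58 and 0.92, and Ccl3 reached 1.24 in GFP positive cells, below the 40th percentile, against 2.82 in GFP negative cells. With 32 added in linear units their changes were -0.19 and -0.17, and Ccl4 no longer passed (limma adjusted p = 0.0644). Without GFP negative 1 and GFP positive 3, 4 rose and 1 fell.

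**Figure D2:**
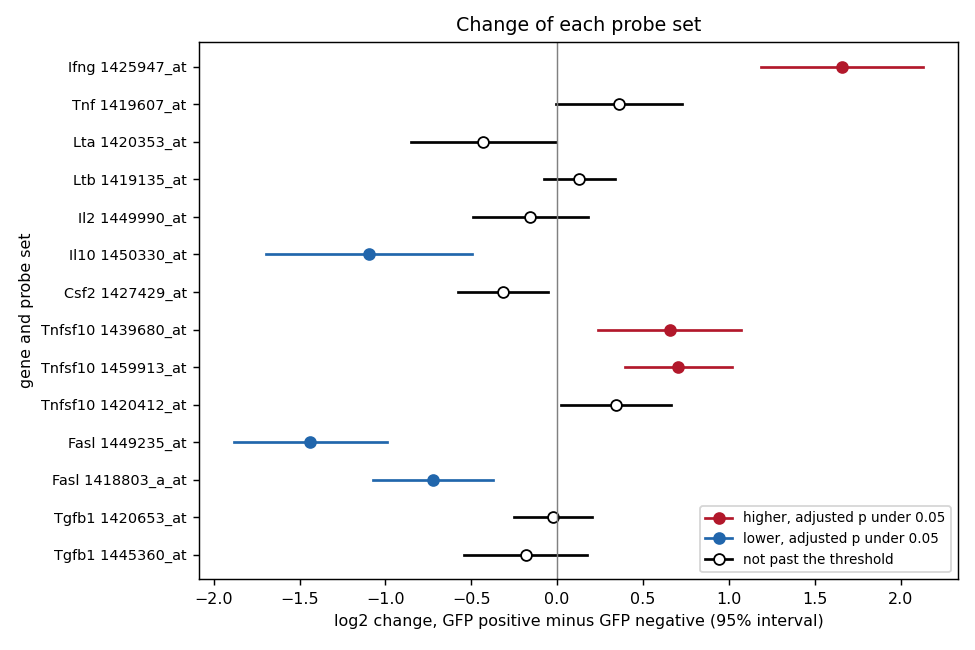
Log2 change of each probe set, GFP positive minus GFP negative (horizontal axis), with its 95% interval from limma. Filled points passed at an adjusted p under 0.05, and open points did not. Ifng at 1.66 and Fasl at -1.44 lie farthest from 0.

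Il2 and Csf2 encode the growth factors interleukin 2 and GM-CSF, and both lay below the 40th percentile. Il2 read 1.17, 0.91 and 0.62 in GFP positive cells, against 0.89, 1.07 and 1.20 in GFP negative cells, and the groups overlapped (limma adjusted p = 0.519). Csf2 read 1.05, 0.93 and 0.84 in GFP positive cells, against 1.42, 1.29 and 1.05 in GFP negative cells, with GFP positive 1 just under GFP negative 3. The Csf2 change of -0.31 did not pass (limma adjusted p = 0.098) and passed in 1 of 14 alternatives, at -0.43 after centring on the brighter probe sets. Whether either transcript was above background was not tested, since no detection calls were used. The probe set shared by Ntan1 and Il2 averaged 8.03 in GFP positive and 7.75 in GFP negative cells, and cannot be assigned to either gene.

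Of 21 genes listed as receptor genes of these ligands, 5 rose, 1 fell and 15 did not pass, with a median change of 0.12. Over all genes 25.4% passed, 15.4% upward and 10% downward. Il2ra, which fell, encodes the alpha chain of the interleukin 2 receptor. It fell by 2.31, at 6.03 ± 0.23 in GFP positive and 8.34 ± 0.05 in GFP negative cells, and Il2rb, the beta chain gene, averaged 8.06 and 8.27 and did not pass (limma adjusted p = 0.178). For GM-CSF, the alpha chain gene Csf2ra averaged 2.72 and 2.27, with a limma adjusted p of 0.133. The shared beta chain gene Csf2rb averaged 0.78 in GFP positive and 0.94 in GFP negative cells, below the 40th percentile. Csf2rb2, a related chain gene counted among those 21, averaged 0.86 and 0.89, also below it.

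Il10 encodes interleukin 10, which dampens the response of antigen presenting cells and which effector T cells can make. Its probe set read 2.12, 2.93 and 2.00 in GFP positive 1, 2 and 3, against 3.16, 3.32 and 3.87 in GFP negative 1, 2 and 3. The groups did not overlap, though GFP positive 2 came near GFP negative 1. The change was -1.10 ± 0.26 (SE), with an interval of -1.70 to -0.50 and a limma adjusted p of 0.021. The Il10 call was lost without GFP positive 1, GFP positive 3, GFP negative 2 or GFP negative 3, with adjusted p of 0.0557 to 0.0753 and changes of -1.16 to -0.89. It was also lost without GFP negative 1 and GFP positive 3 together (limma adjusted p = 0.135) and with 8 or 32 added in linear units (-0.52 and -0.21, adjusted p = 0.0687 and 0.104).

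Tgfb1, the gene of transforming growth factor beta 1, did not pass. Its brighter probe set read 5.01, 4.92 and 5.20 in GFP positive cells, against 5.01, 5.14 and 5.05 in GFP negative cells, and its second 1.84, 1.70 and 2.23 against 2.22, 1.87 and 2.24. Both overlapped between groups, and the brighter one differed by -0.02 with an interval of -0.25 to 0.20 (limma adjusted p = 0.9). Tgfb2 and Tgfb3, the other isoform genes, lay between 1.21 and 1.29 in both groups, below the 40th percentile by their means over the arrays, and 0 of the 2 passed by limma or had an unadjusted p under 0.05.

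Among receptors of both restraining cytokines, Il10rb, encoding a shared chain of the interleukin 10 receptor, rose by 0.85 on its brighter probe set, at 8.23 ± 0.10 in GFP positive and 7.38 ± 0.11 in GFP negative cells, while Il10ra, the ligand-binding chain, had a change of 0.06. Tgfbr3, encoding the coreceptor betaglycan, rose by 1.87 and Tgfbr1, encoding a signalling chain, by 1.77, each on the bright one of its probe sets, the rest lying below the 40th percentile. Among genes listed for the TGF-beta response the median change was 0.54, with 5 higher and 1 lower at an unadjusted p under 0.05. At a limma adjusted p under 0.05, 4 of 8 rose and 0 fell, against 15.4% and 10% of all genes. These were Itgae, the integrin alpha E gene (4.13), Pmepa1, a feedback inhibitor (2.08), and the SMAD corepressor genes Skil (1.03) and Ski (0.78). All 4 passed without GFP negative 1 and GFP positive 3, and the rise of Itgae was 1.39 with 32 added in linear units. Smad7, the classic feedback target, had a change of -0.10 and did not pass.

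Fasl encodes Fas ligand, a membrane protein with which cytotoxic T cells kill cells that carry Fas. Its brighter probe set read 2.55, 3.05 and 2.57 in GFP positive 1, 2 and 3, against 3.88, 4.54 and 4.06 in GFP negative 1, 2 and 3. The dimmer one read 2.01, 1.94 and 1.94 in GFP positive cells, against 2.57, 3.05 and 2.43 in GFP negative cells. On both probe sets all GFP positive samples lay below all GFP negative ones. The brighter changed by -1.44 ± 0.19 (SE), with an interval of -1.88 to -0.99 and a limma adjusted p of 0.00155, and the dimmer by -0.72 ± 0.15 (adjusted p = 0.0119). Within replicate numbers 1, 2 and 3 the brighter probe set differed by -1.33, -1.49 and -1.50. It passed in all 17 alternatives, at -0.37 with 32 added in linear units, and the dimmer in 12 of 15, the exceptions being 8 or 32 added and the fit without GFP negative 1 and GFP positive 3.

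Tnfsf10 encodes TRAIL, a death ligand that many immune cells raise after interferon. Its brightest probe set read 4.74, 3.95 and 4.26 in GFP positive 1, 2 and 3, against 3.58, 3.67 and 3.74 in GFP negative cells. A second read 4.28, 4.07 and 4.25 in GFP positive cells, against 3.49, 3.76 and 3.24 in GFP negative cells, and the dimmest read 2.83, 2.57 and 2.65 against 2.55, 2.05 and 2.42. In all 3 probe sets every GFP positive sample lay above every GFP negative one, by little in the dimmest. The changes were 0.65 ± 0.18, 0.71 ± 0.14 and 0.34 ± 0.14 (SE), with limma adjusted p of 0.0382, 0.00813 and 0.132, so the first pair rose and the dimmest did not pass. The second probe set passed in 15 of 16 alternatives. The brightest passed in 8 of 17 and lost its call without GFP positive 3 or without GFP negative 1, 2 or 3, at 0.61 to 0.69. It also lost it without GFP negative 1 and GFP positive 3 together (0.64), after quantile normalization (0.52) or centring on the brighter probe sets (0.54), and with 8 or 32 added in linear units (0.44 and 0.23).

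Fas, the receptor gene of Fas ligand, averaged 5.04 ± 0.23 in GFP positive and 4.80 ± 0.11 in GFP negative cells, a change of 0.24 that did not pass (limma adjusted p = 0.235). Tnfrsf10b, the TRAIL death receptor of the mouse, stood at a low 1.47 and 1.59, and the mouse decoy receptor gene Tnfrsf22 at 3.22 and 3.10, neither past the threshold. Of 7 genes of death receptor signalling, 2 rose, 1 fell and 4 did not pass, where 15.4% of all genes rose and 10% fell. Casp8, the initiator caspase, rose by 0.60 and Xiap, a caspase inhibitor, by 0.62 on its brightest probe set. The next brightest Xiap probe set rose by 0.70 (limma adjusted p = 0.0399), while a dimmer one fell by 0.42. Diablo, which antagonises Xiap, fell by 0.37 on its brighter probe set, and kept that call only without GFP negative 1 when single arrays were left out. Without GFP negative 1 and GFP positive 3, 1 of these genes rose and 0 fell. Blocking on the replicate number added Bid, on its brightest probe set, to those that fell (-0.39, adjusted p = 0.0411). Dimmer Bid probe sets fell without the block, by 0.65 and 0.73 (limma adjusted p = 0.00529 and 0.0398).

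**Figure D3:**
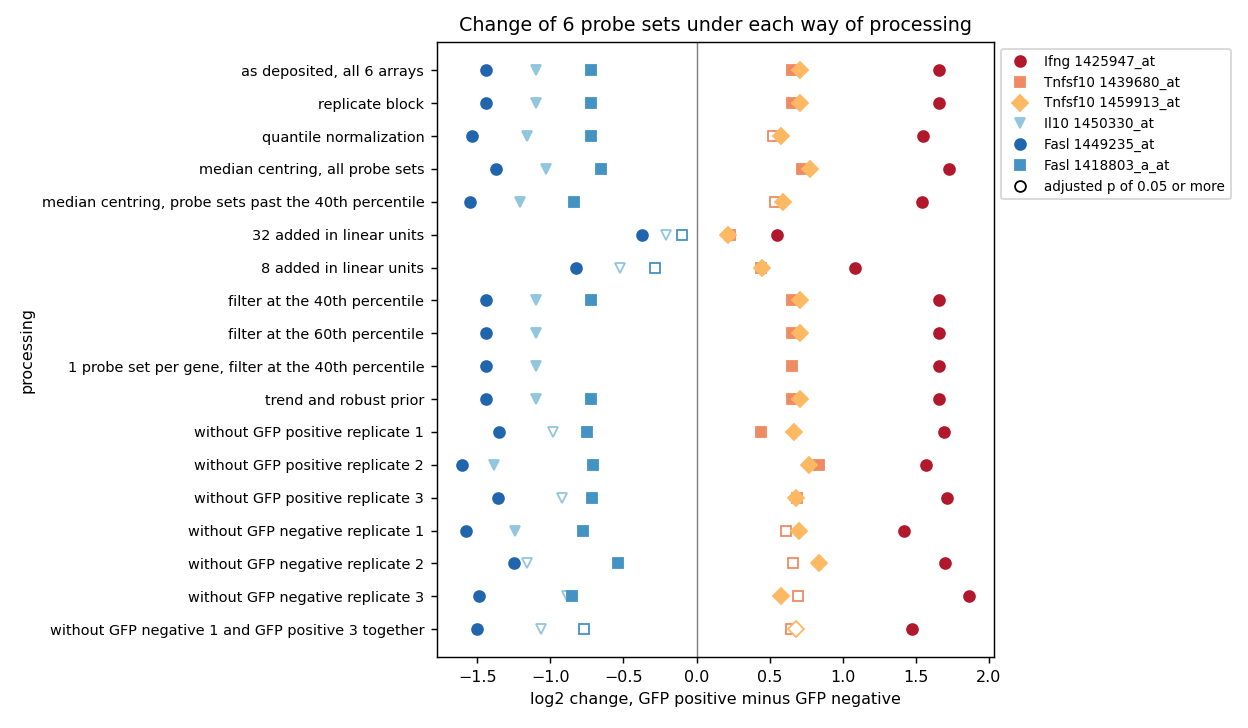
Log2 change, GFP positive minus GFP negative (horizontal axis), of 6 probe sets under each way of processing (vertical axis), with filled symbols where the limma adjusted p was under 0.05. Ifng and the brighter Fasl probe set stay filled in every row, at 0.55 to 1.86 and -1.60 to -0.37, while Il10 and the brightest Tnfsf10 probe set lose their fill in several.

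Other ligands were read in the same way. Of 8 other TNF family ligand genes measured, 0 passed by limma (2 were lower at an unadjusted p under 0.05), and changes ran from -0.36 for Tnfsf13b, the BAFF gene, to 0.08 for Tnfsf8, the CD30 ligand gene. Tnfsf13b passed with the replicate number as a block (limma adjusted p = 0.0333) and without GFP positive 1. Tnfsf11, the RANKL gene, averaged 4.74 ± 0.07 in GFP positive and 4.69 ± 0.42 in GFP negative cells. Of 18 other cytokine genes, 3 rose and 0 fell by limma, against 4 higher and 2 lower at an unadjusted p under 0.05. By limma 15.4% of all genes rose and 10% fell. Il16, whose product attracts CD4 cells, rose by 0.76 on its brightest probe set and Il18, which enhances interferon gamma production, by 0.65, while Il15, a cytokine of memory CD8 cells, rose by 0.39, at 1.30 in GFP positive and 0.91 in GFP negative cells. The mean of Il15 over the arrays lay below the 40th percentile. With 32 added in linear units, 1 of these cytokine genes rose and 1 fell. Without GFP negative 2 or without GFP negative 3, 1 of these cytokine genes rose, and without GFP positive 2, GFP positive 3 or GFP negative 1, 2 did. Centring on the brighter probe sets gave 2 that rose and 2 that fell among these cytokine genes, and 2 that fell among the other TNF family ligands, and the trend and robust prior gave 4 and 2 of the cytokine genes. Lif, a cytokine of the interleukin 6 family, averaged 6.93 and 6.96.

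Transcription factors that act on cytokine genes moved both ways. Of 30 such genes 12 rose, 3 fell and 15 did not pass, with a median change of 0.25. Of all genes, 15.4% rose and 10% fell. Tbx21, which encodes T-bet, an activator of Ifng, averaged 6.93 ± 0.26 in GFP positive and 6.87 ± 0.17 in GFP negative cells, and Stat4, which carries the interleukin 12 signal, averaged 7.22 and 7.18, neither past the threshold. Eomes, the other T-box activator of Ifng, fell by 2.28, and Irf4, which the T cell receptor induces, fell by 1.18. Maf, an activator of Il10, rose by 3.29 on its brightest of 6 probe sets, Gata3 by 2.25, Foxo3, known to activate Fasl, by 0.88 and Ikzf1 (Ikaros) by 0.70. With 32 added in linear units the rise of Maf, whose GFP negative mean was 1.42, was 0.75 and that of Gata3 was 1.34, both still past the threshold. Of the MEF2 genes, which encode partners of class IIa deacetylases, Mef2a fell by 0.45 and Mef2d, named after its value was seen, rose by 0.40 (limma adjusted p = 0.00979), while Mef2c had a change of 0.03 and did not pass. Egr2 and Egr3, activators of Fasl, had changes of -0.10 and -0.42 on their brighter probe sets and did not pass, while a dim Egr3 probe set fell by 1.98 (limma adjusted p = 0.0112). Without GFP negative 1 and GFP positive 3, 8 rose and 1 fell.

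Of 13 factors that act on mRNA stability, 2 rose, 1 fell and 10 did not pass, where 15.4% of all genes rose and 10% fell. Zfp36, encoding tristetraprolin, which destabilises Tnf and other cytokine transcripts, fell by 0.97, at 4.29 ± 0.16 in GFP positive and 5.26 ± 0.11 in GFP negative cells (limma adjusted p = 6.58e-04). Rc3h2 (Roquin-2) rose by 0.41 on its brightest probe set, while a dim one fell by 0.58, and Zc3h12d rose by 0.56. The number that rose was 1 without GFP positive 2, GFP positive 3, GFP negative 1 or GFP negative 3, and 4 without GFP positive 1. Of 11 genes that shed or activate ligands, 3 rose, 1 fell and 7 did not pass, beside the same shares of all genes. Adam17, the TNF sheddase, rose by 0.46 and Adam10, a sheddase of Fas ligand, by 0.37, each on its brightest probe set, and Itgav, an integrin chain that can activate latent TGF-beta, by 0.51. Sppl2b, an intramembrane protease of TNF family stubs, fell by 0.38, a call lost with the replicate number as a block (limma adjusted p = 0.0538) and without GFP negative 1, GFP negative 3, GFP positive 1 or GFP positive 3. Without GFP negative 1 and GFP positive 3, 1 of these processing genes rose and 0 fell, and of the stability factors 0 rose and 1 fell.

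**Figure D4:**
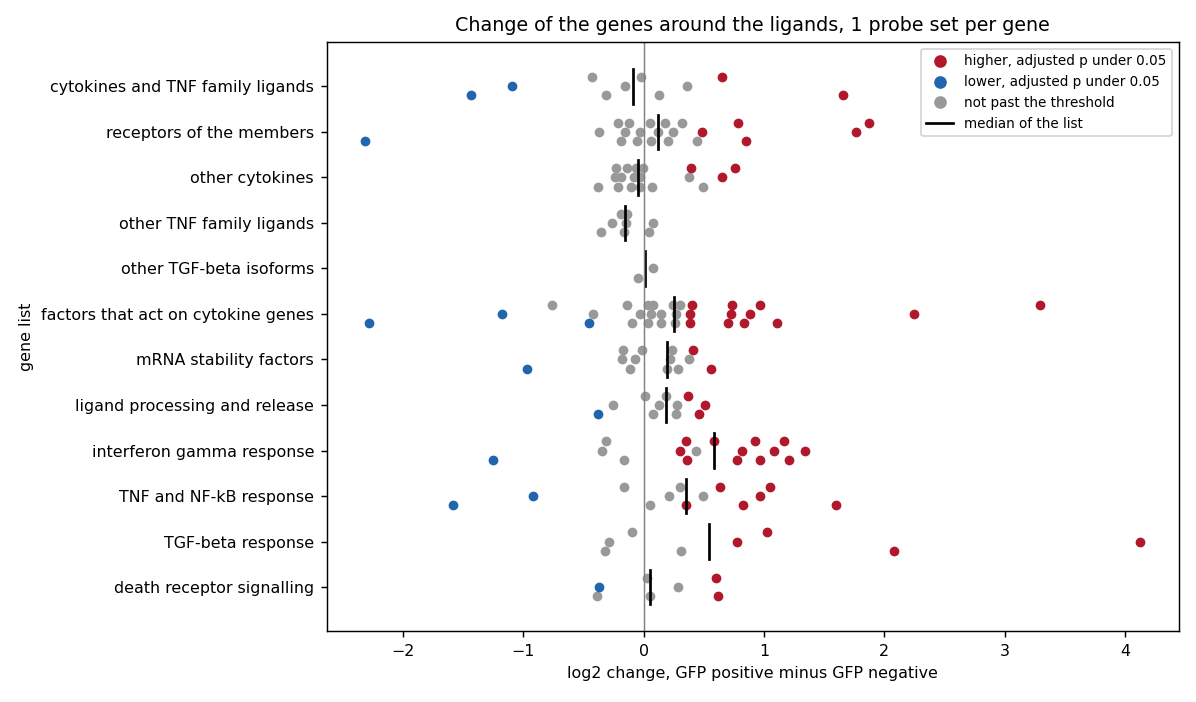
Log2 change, GFP positive minus GFP negative (horizontal axis), of each gene on its brightest probe set, by gene list (vertical axis). Red and blue points passed at a limma adjusted p under 0.05, grey points did not, and the black line is the median of the list. The interferon gamma response and the factors that act on cytokine genes each have 12 red points, of 17 and of 30 genes, and the 8 other TNF family ligands are grey. Over all genes 15.4% were higher and 10% lower at that threshold.

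Across the 6 arrays, the genes whose pattern was most like that of Ifng were Zup1, Smg6 and Mapk11, with Pearson r of 0.9989, 0.9985 and 0.9984. Those most like the brighter Fasl probe set were Cfdp1, Ash2l and Lrmp, with r of 0.9978, 0.997 and 0.9968. The points share the split into 2 groups, and 780 and 685 of 13186 genes had an r over 0.95 with Ifng and Fasl, so such values are common here. Among the control samples, GFP negative 3 was the highest for Ifng, Tnf, Lta, Il2 and Il10. Among the GFP positive samples, GFP positive 2 was the highest for Ifng, Tnf, Il10 and the brighter Fasl probe set, and the lowest for each Tnfsf10 probe set.

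Cell types other than T cells also make several of these ligands, and their markers were read. Of 5 monocyte or macrophage markers, 2 lay above the 40th percentile and the brightest, Csf1r, averaged 2.66 in GFP positive and 2.98 in GFP negative cells, with summed linear signals of 14.9 to 17.2 and 16.8 to 18.6. Both natural killer cell markers, Ncr1 among them at 0.85 in either group, and both mast cell or basophil markers lay under that level, as did the erythroid marker Hba-a1 at 0.81 and 1.16. Of 4 granulocyte markers 1 lay above it, and the brightest, Elane, averaged 2.10 and 2.22. Mpo, a dimmer granulocyte marker, was lower in GFP positive cells, at 0.90 against 1.35 in GFP negative cells (limma adjusted p = 0.0316). Markers of CD4 T cells summed to 22.1 to 24.8 in GFP positive and 19.3 to 21.2 in GFP negative samples, and they moved both ways. Zbtb7b was higher, at 3.86 and 3.44 (limma adjusted p = 0.038). Foxp3 was lower, at 0.75 and 1.19, both under the 40th percentile (limma adjusted p = 0.0291), and Cd4 did not pass. Markers of cytotoxic T cells summed to 11100 to 12050 in GFP positive and 12020 to 13400 in GFP negative samples, with Gzmb at 11.58 and 12.58. B cell markers summed to 26.1 to 32.05 in GFP positive and 28.1 to 34.3 in GFP negative samples, with Cd79b at 4.35 and 4.50. Dendritic cell markers summed to 68.05 to 89.75 and 56.6 to 78.59, with H2-Ab1 at 5.94 and 5.54, while Flt3 and Zbtb46 fell by 0.47 each to 2.07 and 2.01 in GFP positive cells, against 2.54 and 2.49 in GFP negative cells. The spread was wide in GFP negative cells for H2-Aa, at 1.41 ± 0.52 in GFP positive and 2.30 ± 1.63 in GFP negative cells. The B cell marker Ms4a1 averaged 0.83 ± 0.22 and 1.26 ± 0.68, and neither passed. The part of such cells in the changes above was not tested.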

How the data were processed

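Biotin-labelled RNA from each of the 6 sorted samples (3 GFP positive, 3 GFP negative) was read on a GeneChip Mouse Genome 430 2.0 array, per the labels' protocols. The authors' deposited table gives log2 signals of 45101 probe sets, a unit inferred here from their range. Per the submitters' processing notes the software was Affymetrix Expression Console, with no version. Summarisation, background treatment and normalization were not given in the sources used here. Detection calls were not used.

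The values were used as deposited. Of the probe sets, 64 are controls, and of the other 45037, 34945 carry 1 gene symbol, 932 several and 9160 none in the annotation used here. Groups were compared with limma 3.58.1 in R 4.3.3 (two-sided moderated test from lmFit and eBayes, without covariates), with Benjamini-Hochberg adjustment over all 45037 probe sets, no filter on dim ones and a threshold of 0.05. For a gene, its brightest probe set by mean signal was taken. The procedure was tested on simulated data.

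The 10 genes, the 11 lists of related genes and the 9 lists of cell type markers were chosen with earlier results of these data known. From each list up to 4 genes per direction are named by unadjusted p, and genes that did not pass are given with their values. Promoters and symbols come from RefSeq (GRCm38.p6).

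Samples with the same replicate number deviated together from their group means over 13194 genes, with correlations of 0.47, 0.35 and 0.25. Those between different numbers were -0.33 to 0.04. These values are not independent, since deviations cancel out within each group. Pairing is taken from the data only, since the labels do not state it. The p-values and intervals come from the unpaired fit unless a block is named. The replicate number was tried as a block, besides other normalizations, offsets, filters and priors and leaving out arrays.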

Additional observations from a re-analysis of the deposited data

How the results depend on the processing

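With the replicate number as a block, 4 of the 10 genes and 6 of the 14 probe sets passed, as without it. It moved the count of each gene list by at most 1 in a direction, and 61 list genes passed in place of 58. Over all probe sets it gave 8065 calls, against 8369. Adding 32 or 8 to each value in linear units left 2 genes (Ifng and Fasl) and 3 probe sets called in both settings. Without GFP negative 1 and GFP positive 3 together, 2 genes, 2 probe sets, 32 list genes and 3075 of all probe sets passed, with 4 arrays left. Testing 1 probe set per gene past the 40th percentile gave 5557 calls among 13194 tested. Leaving out each array in turn gave 2 to 4 genes, 4 to 6 probe sets, 49 to 63 list genes and 5501 to 9126 of all probe sets. The brighter Tgfb1 probe set, which never passed, changed sign after centring each array on its median (0.0447) and ranged from -0.10 to 0.0387 when arrays were left out, with 0.0387 and 0.0116 without GFP positive 2 and GFP negative 2. Dim signals limit Il2 and Csf2, and the size of the Ifng, Fasl, Il10 and Tnfsf10 changes moved with the amount added. The cause was not tested.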
